A study of Mus musculus with 14 samples.

Results

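The 3740 regions described here are meiotic double-strand break hotspots of control mouse testis that lay between genes. They had no listed counterpart in testis depleted of HELLS, an SNF2-like chromatin remodeler. Each is a peak of single-stranded DNA bound by DMC1, the meiotic strand exchange protein that loads on resected break ends, and was mapped by DMC1 ChIP-SSDS, in which DMC1-bound chromatin is immunoprecipitated and its single-stranded DNA sequenced. *Hells* CTRL males were Hells fl/Δ, with 1 floxed and 1 deleted allele and no Cre. *Hells* cKO males were Hells fl/Δ;Stra8-iCre, in which a Cre transgene under the Stra8 promoter deletes the floxed allele in germ cells as they approach meiosis. Both genotypes therefore carried a deleted allele, and both had the PRDM9 Dom2 variant of the C57BL/6 background. By the labels all were adult and whole testis was used, and by the methods of the study *Hells* CTRL mice were 5 weeks old (2 testes per replicate) and *Hells* cKO mice were 9 weeks old (3 testes per replicate), so that age and genotype cannot be told apart. HELLS was not wholly lost, as the study saw weak HELLS staining in a minority of *Hells* cKO nuclei. It holds that incomplete deletion in some spermatocytes might explain this. There were 2 libraries per genotype, merged by the authors into 1 peak list each, so no spread between replicates can be given and no test between genotypes was possible.

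The members were chosen by measured values, namely peak strength and the distance to the *Hells* cKO centers, and by the mouse gene annotation (GENCODE M21, genome build GRCm38). Of the 11133 *Hells* CTRL peaks, 10397 were autosomal and 9463 of these had a strength of 338 or less, the limit above which the strong autosomal peaks lie. Of those, 9198 had no *Hells* cKO center closer than 400 bp, 8605 of which had no transcript start within 1 kb, and 3740 of which had their center in no annotated gene of any type. The members made up 33.6% of the *Hells* CTRL list, which with the 17117 *Hells* cKO peaks gives 28250 peaks in all. Across the whole list 89.9% of *Hells* CTRL peaks had no *Hells* cKO partner by this distance. Under the strength limit 3740 of 3814 autosomal peaks between genes had none (98.1%, 97.6 to 98.5%). That share describes the 3814 peaks. The members were chosen for having no partner, so it is not a result about them.

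In mice, most meiotic breaks form where PRDM9 binds. PRDM9 is a histone methyltransferase whose array of zinc fingers recognises a DNA motif and which marks the neighbouring nucleosomes with H3K4me3 and H3K36me3. PRDM9 sites are found both within and between genes, so hotspots can lie far from genes. In mice without PRDM9, breaks form mainly at promoters and enhancers, at sites enriched in H3K4me3.

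The DNA at the center of members is shown first for the 3 with the highest score for the hotspot motif, and then for strong members with and without it. The motif was learned from 866 autosomal *Hells* CTRL peaks of strength above 338 that lay away from transcript starts, none of which is a member, and reads AGATGNTNCTNCCNNNT, with N where no base reached 50%. Capitals mark the best match within 100 bp of the center, each sequence is written 5′ to 3′ on the stated strand of GRCm38 from the RefSeq copy of the assembly, and no capitals means that the best score stayed under the limit of 10.9.
Member near Syt10, chr15:89875262-89875373, minus strand: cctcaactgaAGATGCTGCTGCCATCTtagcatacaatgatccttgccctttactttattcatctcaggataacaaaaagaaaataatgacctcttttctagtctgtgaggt
Member near Gm9898, chr1:30700547-30700606, minus strand: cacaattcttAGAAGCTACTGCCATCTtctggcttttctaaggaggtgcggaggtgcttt
Member near Minpp1, chr19:32524689-32524750, plus strand: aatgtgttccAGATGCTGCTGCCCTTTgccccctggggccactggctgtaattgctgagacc
Strongest member, near Cldn8, chr16:88589463-88589600, minus strand: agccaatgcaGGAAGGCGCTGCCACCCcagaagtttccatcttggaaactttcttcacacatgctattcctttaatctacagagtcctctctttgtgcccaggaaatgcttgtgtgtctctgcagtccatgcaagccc
Next strongest member with a match, chr5:18904959-18905018, minus strand: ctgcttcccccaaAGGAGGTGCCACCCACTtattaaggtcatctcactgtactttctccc
Strong member without a match, chr4:78762392-78762451, plus strand: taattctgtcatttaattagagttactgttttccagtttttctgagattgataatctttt

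The Syt10 and Minpp1 matches held all 11 fixed letters of the motif and the match near Gm9898 held 10, whereas the matches in the strong members near Cldn8 and on chromosome 5 held 7 and 8. Motif score and peak strength did not go together in these examples. The highest score (21.1) belonged to a member of strength 39, at chr15:89874532-89876103, 33.5 kb from Syt10 (a synaptotagmin gene), and the next (20.7) to a member of strength 28. The member with the score of 20.5, 9.36 kb from Minpp1 (an inositol polyphosphate phosphatase gene), had a strength of 254.

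Across the 3740 members, 1911 carried the motif within 100 bp of the peak center (51.1%, exact 95% interval 49.5 to 52.7%). In windows of the same length 1 kb to either side of the same centers, 332 of 7480 did (4.44%, 3.98 to 4.93%), and 5 kb away 4.81% did. The share at the center was 11.5 times that in the flanks. This ratio depends on the score limit, which was set so that 5% of the flanking windows of the strong peaks met it. A match is a description of the letters and not a measured PRDM9 site. All intervals given here cover counting error only, since peaks of a single merged list are not replicates.

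Matches were most frequent next to the center and lay in either direction, with 962 on the plus strand and 949 on the minus strand. In bins of 50 bp, 17.4% of members had a match in the 50 bp after the center and 15.5% in the 50 bp before it, falling to 8.40% from 100 to 150 bp and to between about 1% and 2% beyond 500 bp. With the same score limit, 27.5% of members had a match within 50 bp (2.19% of windows of that length centered 2 kb away), 75.8% within 250 bp (12.5%) and 79.9% within 500 bp (23.6%).

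**Figure D1:**
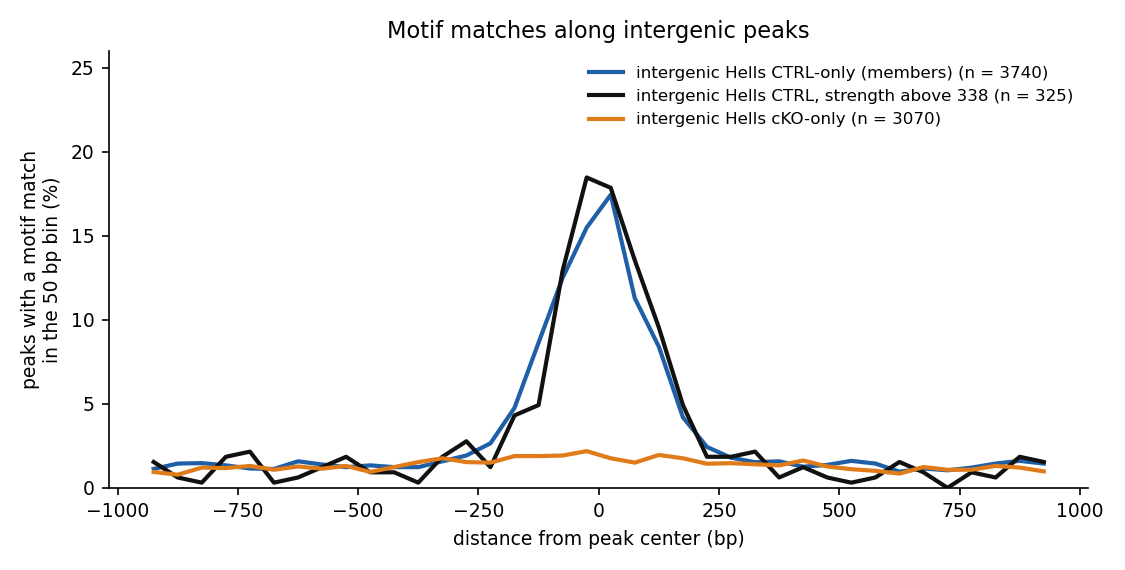
Percent of peaks with a motif match in each 50 bp bin, against the distance of the bin from the peak center, for the 3740 members, 325 intergenic Hells CTRL peaks of strength above 338, and 3070 intergenic Hells cKO-only peaks. Members rise to 17.4% beside the center and lie between about 1% and 2% beyond 500 bp, while the Hells cKO-only line rises only to 2.18% at the center from about 1% at its outer ends.

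The strong intergenic *Hells* CTRL peaks (strength above 338, whatever their state in *Hells* cKO) carried the motif in 188 of 325 cases (57.8%, 52.3 to 63.3%), an interval that touches that of the members. The motif was learned from these and other strong peaks. In a further count it was learned on the odd-numbered chromosomes and scanned on the even-numbered ones, and the reverse. Then 51.8% of members (50.2 to 53.4%) and 59.5% of the 866 strong peaks away from transcript starts (56.1 to 62.8%) matched. These intervals did not overlap, but the 866 include peaks inside genes, so strength and place differ together. The strong intergenic peaks were not counted alone in this way. The limit was met by 4.01% of flanking windows for the motif from odd-numbered chromosomes and by 6.40% for that from even-numbered ones. Of the other *Hells* CTRL-only peaks under the strength limit, 52.1% of the 2906 inside genes of 100 kb or more, 53.0% of the 1959 inside shorter genes and 52.8% of the 593 at transcript starts carried the motif. These shares overlap that of the members within their intervals. The intergenic peaks found in *Hells* cKO only stood apart, with 205 of 3070 matching (6.68%, 5.82 to 7.62%) against 4.22% in their own flanks.

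Single words of 8 bases were also concentrated at the members. Of the 20 words most enriched in the strong peaks, many of which are shifted copies of one another, at least 1 was present within 100 bp of the center in 33.2% of members (31.7 to 34.8%) and in 9.67% of their flanking windows. The word GATGCTGC, counted on both strands, was in 223 members and in a mean of 23.0 flanking windows per side. GATGCTAC was in 141 members against 12.5, and GCTACTAC in 68 against 6.50. Among intergenic *Hells* cKO-only peaks 11.4% held any of the 20 words. By this measure the members were lower than *Hells* CTRL-only peaks inside long genes (37.0%, 35.3 to 38.8%) and at transcript starts (39.3%, 35.3 to 43.4%), whose intervals did not overlap theirs. Those inside shorter genes were at 36.8% (34.6 to 38.9%) and strong intergenic *Hells* CTRL peaks at 35.1% (29.9 to 40.5%), and both of these intervals overlapped that of the members. The flanking windows of the other *Hells* CTRL-only groups also held the words more often, at 11.3% inside long genes, 10.8% inside shorter genes and 12.2% at starts.

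Within the 1911 matches some bases were close to fixed, as a score limit favours. Guanine stood at position 5 in 99.9% and at position 2 in 98.8%, and cytosine at position 9 in 92.2%. Positions 8 and 11 were each split between guanine (50.2% and 52.7%) and adenine (45.5% and 42.6%). In the motif as learned from the strong peaks no base reached 50% at either position. A CpG dinucleotide was present in 153 matches (8.01%, 6.83 to 9.31%). Most or all bases were repeat-masked in 305 matches (16.0%).

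Member strength is the deposited score of each peak, in which a higher value means more DMC1-bound single-stranded DNA, scaled by the authors to local background and library size within each genotype. It ran from 12 to 337 with a median of 53 (95% interval 51 to 56), and the middle of the distribution spanned 30 to 109. The class from 20 to 39 alone held 1150 members (30.7%), while 53 members (1.42%) lay between 300 and the limit. The members together carried 19.2% of the summed strength of the list, a share that the limit on strength holds down. The other *Hells* CTRL-only groups under the same limit had medians of 54 inside long genes (52 to 57), 57 inside shorter genes (54 to 61) and 54 at transcript starts (50 to 59). All of these intervals overlapped that of the members.

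**Figure D2:**
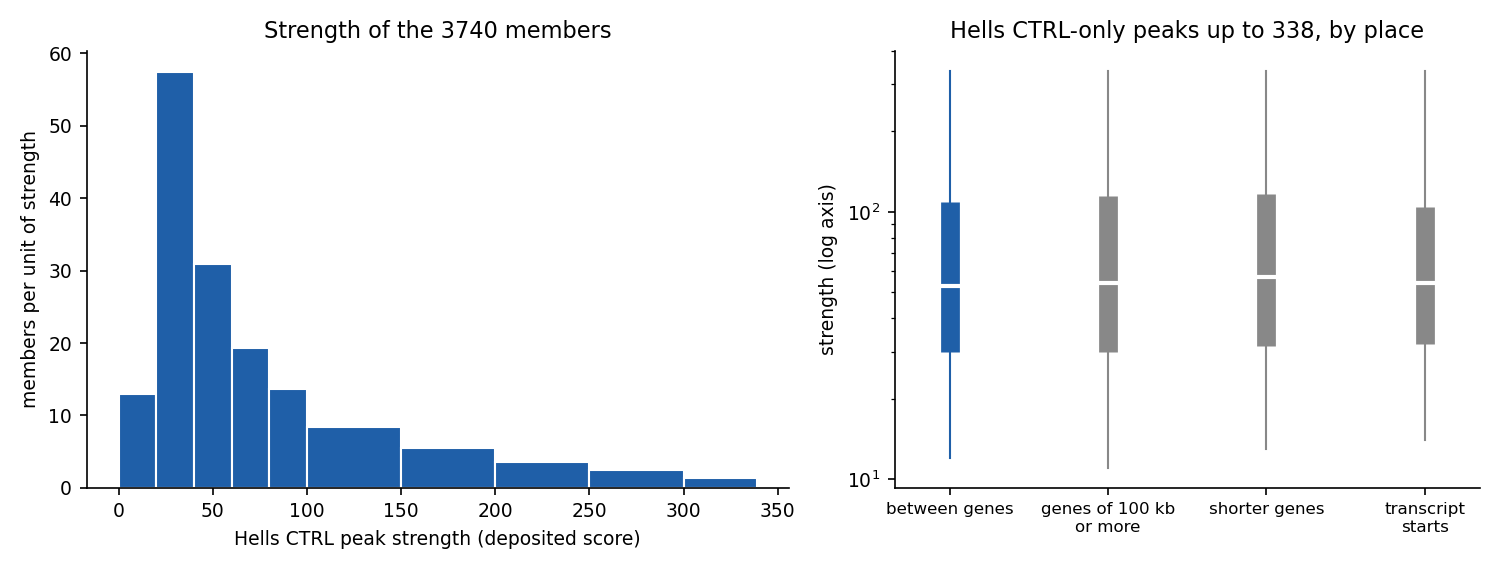
Left, number of members per unit of strength in the classes given in the text, which crowd between 20 and 60. Right, strength of the Hells CTRL-only peaks up to 338 by place on a log axis, with thin lines from lowest to highest, thick bars between the quartiles and white lines at the medians of 53, 54, 57 and 54.

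Stronger members carried the motif more often. In 5 classes of 748 members ordered by strength, the share with a match was 46.1% (42.5 to 49.8%) at strengths of 12 to 27 and 45.1% (41.4 to 48.7%) at 27 to 42. It was 51.6% (48.0 to 55.2%) at 42 to 69, 56.1% (52.5 to 59.7%) at 70 to 133 and 56.6% (52.9 to 60.1%) at 133 to 337. The upper 2 classes thus did not overlap the lower 2 within their intervals. At this score limit even the weakest class lay at about 10 times the share in the flanks. Seen the other way, the 1911 members with a match had a median strength of 60 (56 to 63) and the 1829 without one a median of 48 (45 to 50).

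**Figure D3:**
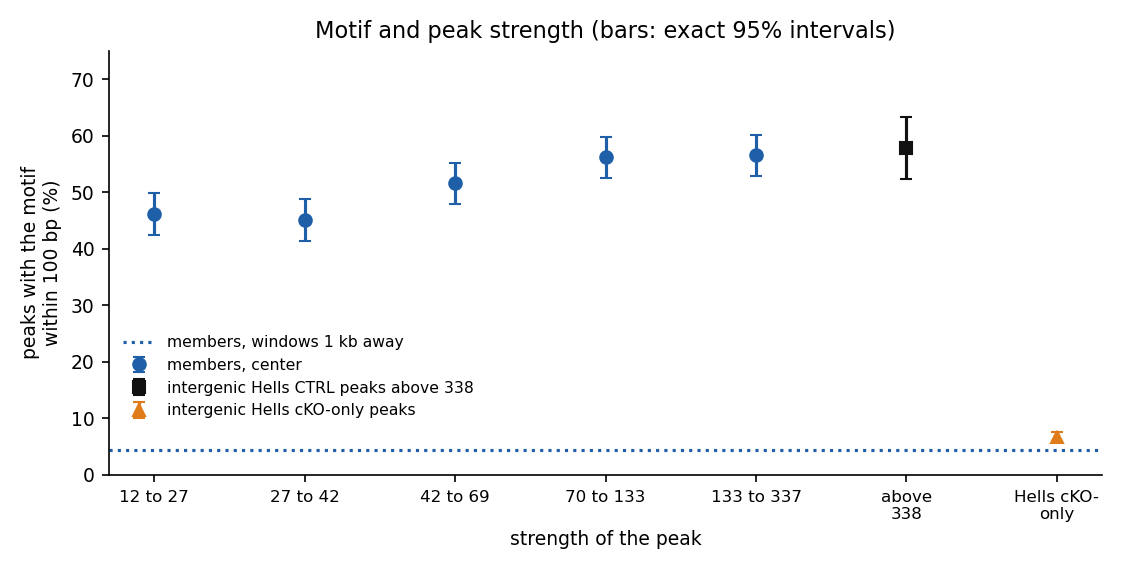
Percent of peaks with a motif match within 100 bp, with exact 95% intervals, for 5 strength classes of 748 members, for the 325 intergenic Hells CTRL peaks of strength above 338, and for 3070 intergenic Hells cKO-only peaks. The dotted line is the 4.44% found in the flanking windows of the members, and the member classes rise from 46.1% to 56.6%.

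The relation was weak from peak to peak: Spearman's rho between strength and motif score was 0.09 over 3740 members, which share 1 merged library. Peak width, with a median of 1655 bp, increased with strength from a median of 1517 bp in the weakest class to 1781 bp in the strongest (rho 0.42). GC content (rho −0.03), CpG count (0.01), repeat-masked share (−0.04) and distance to the nearest gene (0.00) varied little with strength.

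The strongest members show the range of places. The member at chr16:88588612-88590451 (strength 337, motif score 13.9, 11 CpG within 250 bp) lay 26.3 kb from Cldn8, a claudin of tight junctions, and 19.1 kb from the long noncoding gene Gm49688. The member at chr17:76414712-76416601 (337) had no motif match but held 1 of the 20 words, and was 76.5 kb from the nearest gene. The next, at chr5:18904101-18905876 (335), carried a match 8 bp from its center. The members at chr13:90304233-90306240 and chr4:78761575-78763268 (both 334) lay 54.9 kb and 63.5 kb from the nearest gene, the first with a match 87 bp from its center and the second with none. Of these 5 members, 3 thus carried the motif.

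The strongest member of each chromosome also varied in setting. On chromosome 9 it had a strength of 324 and a motif score of 17.0, and lay 0.910 kb from Car12, a carbonic anhydrase gene. On chromosome 10 it had the highest motif score of these (20.2, strength 328) and lay 69.2 kb from a pseudogene. On chromosome 7 it lay between Kctd14 and Ints4 (an Integrator subunit gene), at 6.19 and 15.2 kb, with a strength of 325. The lowest of these leading strengths were 290 on chromosome 18, 296 on chromosome 6 and 298 on chromosome 8. The remaining chromosomes had leading members of 307 to 337.

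The members were not CpG-rich. They held a mean of 3.86 CpG within 250 bp of the center (standard error over members 0.0469), slightly fewer than the 4.12 (0.0560) in windows 5 kb away. No CpG at all was found in 267 members (7.14%, 6.33 to 8.01%), and 10 or more in 4.97% (4.30 to 5.72%). The intergenic *Hells* cKO-only peaks had a mean of 15.1 CpG, and 82.9% of them had 10 or more. The members were also lower in CpG than *Hells* CTRL-only peaks inside long genes (4.62), inside shorter genes (4.93) and at transcript starts (6.22), while the strong intergenic *Hells* CTRL peaks had 3.40. The windows 5 kb away differed in the same direction, with 4.48, 5.35 and 5.13 for the first 3 of these groups and 3.61 for the strong intergenic peaks.

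GC content rose slightly at the members, to a mean of 42.3% within 250 bp (standard error 0.0913) from 41.8% (0.0866) at 5 kb. In the 100 bp next to the center it reached 42.9%. This rise was narrow and followed by a dip on each side, as the profile of GC content shows. The strong intergenic *Hells* CTRL peaks had 40.2% GC within 250 bp and 40.4% at 5 kb, and the intergenic *Hells* cKO-only peaks 50.2% and 42.9%.

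Repeat-masked sequence was scarcer at the members. Within 250 bp of the center 24.0% of bases were masked (standard error 0.343), against 32.8% (0.350) at 5 kb. The lowest value, 22.7%, was in the 100 bp before the center, and 3 kb away the level was 32.6%. Strong intergenic *Hells* CTRL peaks (21.9% against 35.1%) and intergenic *Hells* cKO-only peaks (17.9% against 31.7%) also had fewer masked bases at the center. The depth of the dip was not compared between the groups by a test. The authors kept only uniquely mapped reads, and the effect of this on the masked shares was not tested.

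**Figure D4:**
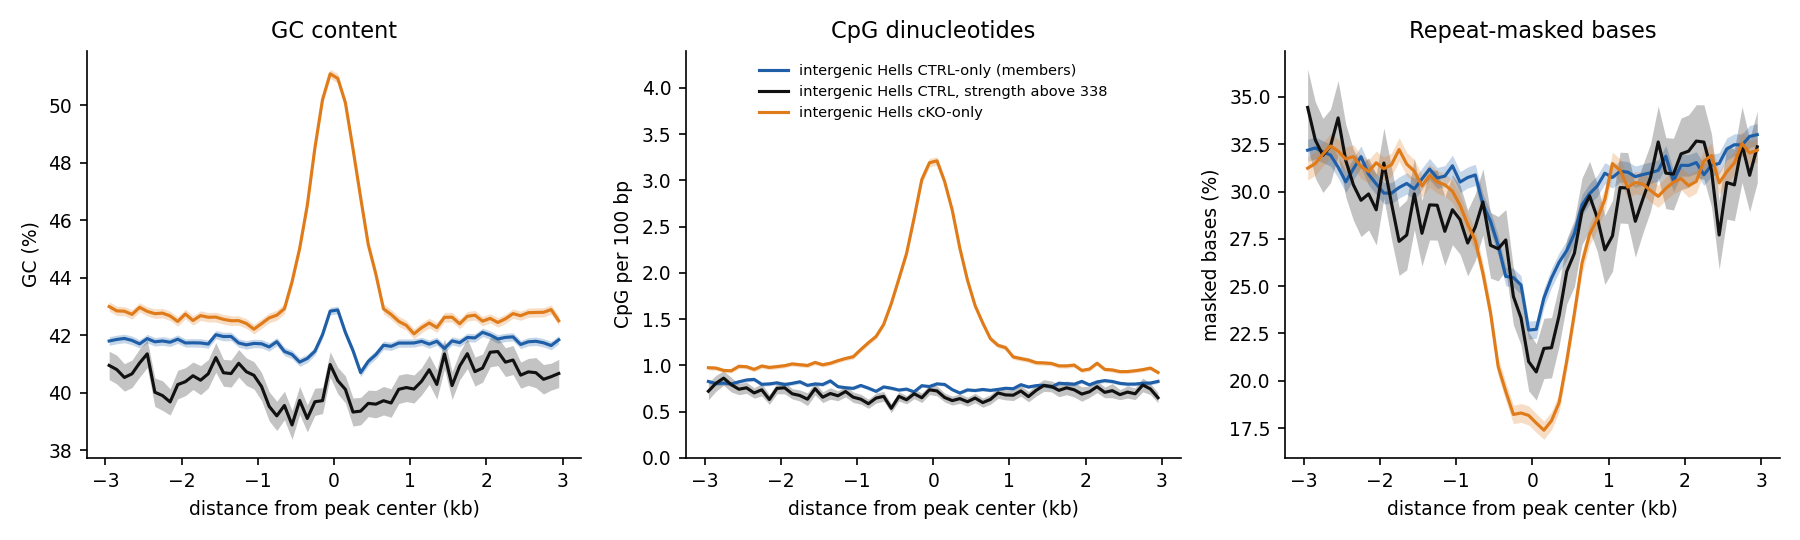
GC content (percent), CpG per 100 bp and repeat-masked bases (percent) in 100 bp bins from 3 kb before to 3 kb after the center, as means with bands of 1 standard error over peaks. The members and the strong intergenic Hells CTRL peaks stay under 1 CpG per 100 bp throughout, the Hells cKO-only peaks rise in GC and CpG at the center, and all 3 groups have fewer masked bases there.

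Among the members richest in CpG, 1 is a tandem array and 1 lies in an almost wholly masked stretch. The third carries the motif, and the center of the first and the third are shown to make this contrast, with capitals as above.
Member near Lars2, chr9:123351030-123351089, plus strand: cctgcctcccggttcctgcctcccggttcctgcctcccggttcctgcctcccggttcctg
Member near Padi2, chr4:140902599-140902722, plus strand: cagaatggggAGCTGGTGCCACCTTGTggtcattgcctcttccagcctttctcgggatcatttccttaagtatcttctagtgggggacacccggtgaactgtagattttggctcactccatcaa

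The member near Lars2, the gene of mitochondrial leucyl-tRNA synthetase, held 23 CpG within 250 bp at a strength of 76. Its repeat unit recurs across the printed stretch, and no motif match was found. The member at chr17:23029129-23030232 (strength 21, 22 CpG) was 98.6% masked within 250 bp and lay between pseudogenes. The member 3.68 kb from Padi2, a peptidylarginine deiminase gene, had a strength of 41, 18 CpG and a motif score of 15.3, and its nearest *Hells* cKO center was 1.95 kb away. Tandem repeats were found within 1 kb of 25 members (0.668%, 0.433 to 0.985%), with strengths of 18 to 180.

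Genes of any type were nearer to the members than to intergenic sequence in general. The members lay at a median of 17.4 kb (16.4 to 18.6 kb) from the nearest annotated gene, with quartiles of 6.18 and 46.5 kb, whereas all autosomal sequence that met the rule on genes and starts lay at a median of 21.1 kb. That sequence came to 1200 Mb, 50.1% of the autosomes, and held 3.12 members per Mb (3.02 to 3.22). The nearest protein-coding gene was at a median of 65.2 kb. The nearest gene was protein-coding for 31.8% of members, a pseudogene for 28.2%, a long intergenic noncoding RNA for 20.6% and a small RNA for 11.4%.

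The density of members fell with distance from genes. It was 4.25 per Mb (3.49 to 5.12) under 1 kb from a gene, 3.59 (3.33 to 3.87) at 1 to 5 kb and 3.28 (3.09 to 3.47) at 5 to 20 kb. As the rule removes 1 kb around transcript starts, the class under 1 kb holds only sequence past gene ends, unlike the others. It then declined to 2.85 (2.62 to 3.11) at 50 to 100 kb and 2.36 (1.89 to 2.91) beyond 200 kb. The members thus thinned out by less than 2 times over this range. The density of intergenic *Hells* cKO-only peaks was 3.40 per Mb (3.21 to 3.59) at 5 to 20 kb and 1.03 (0.730 to 1.42) beyond 200 kb. That of the strong intergenic *Hells* CTRL peaks did not fall in this way, with 0.264 per Mb (0.214 to 0.322) at 5 to 20 kb and 0.380 (0.208 to 0.637) beyond 200 kb, and their median distance to a gene was 22.0 kb (18.7 to 25.4 kb). Strength and motif did not follow the density: members under 1 kb from a gene had a median strength of 62 (47 to 78) and those beyond 200 kb a median of 60 (50 to 81), and 48.2% (38.6 to 57.9%) and 44.8% (34.1 to 55.9%) carried the motif. CpG within 250 bp decreased from a mean of 5.33 to 2.49 over the same distances.

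**Figure D5:**
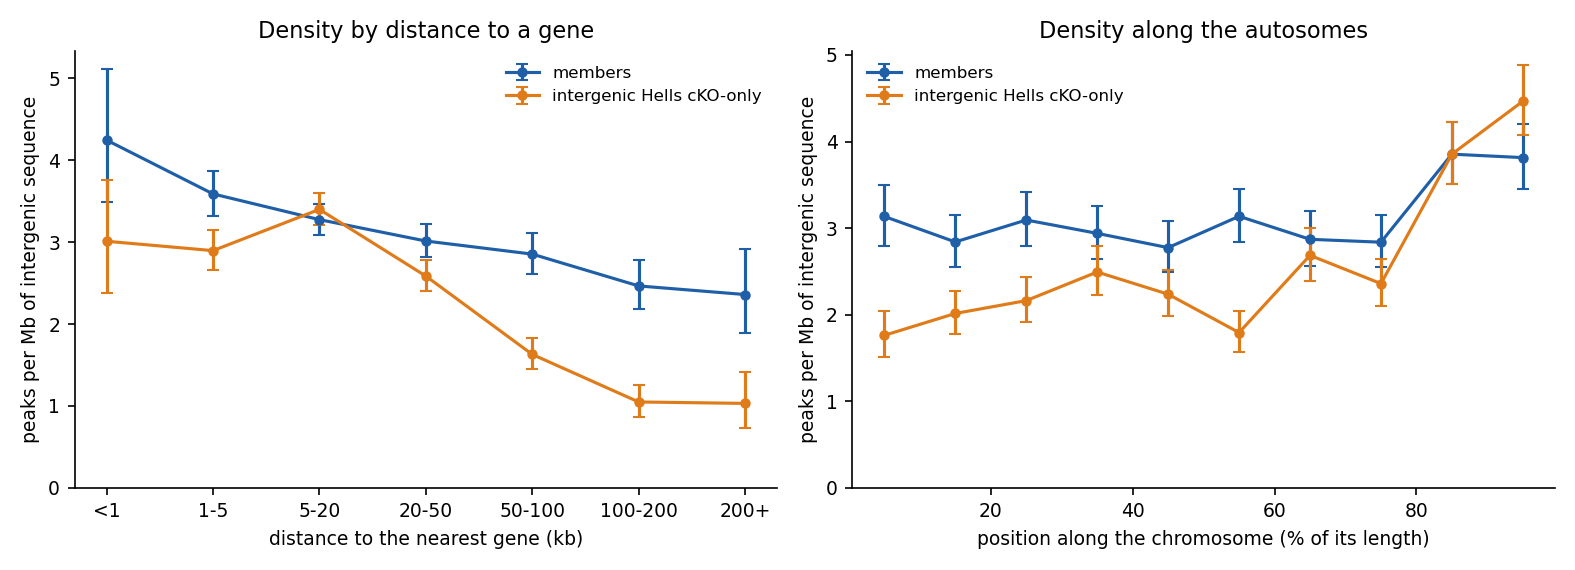
Peaks per Mb of autosomal intergenic sequence with exact 95% Poisson intervals, for members and for intergenic Hells cKO-only peaks. Left, by distance to the nearest gene, members fall from 4.25 to 2.36 per Mb, where the class under 1 kb holds only sequence past gene ends. Right, by position along the chromosome from its first to its last base, members lie at about 3 per Mb and rise to 3.85 and 3.81 in the last 2 bins.

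By direction of the neighbouring genes, the density was 3.09 members per Mb (2.89 to 3.29) where gene ends faced the interval from both sides, 3.13 (2.92 to 3.35) where gene starts did and 3.13 (2.99 to 3.27) between genes pointing the same way. Seen from the nearest gene, 1800 members lay upstream (48.1%) and 1940 downstream (51.9%, 50.3 to 53.5%). The rule removes centers within 1 kb of a transcript start, so the 110 members under 1 kb from a gene could only be downstream. The split is thus partly set by the rule, and the sequence available on each side was not compared. Long intervals held fewer members per Mb, with 3.53 (3.20 to 3.87) in intervals under 20 kb and 2.29 (1.97 to 2.64) in those of 500 kb or more, and the median strength in these was 55 and 71.5.

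Deserts between genes nevertheless contained hotspots. The member farthest from any gene, at chr6:20387324-20389463, had 582 kb of unannotated sequence on its nearer side, and a strength of 23. The next, at chr4:50734368-50736179 (strength 193) and chr1:141968413-141970056 (strength 73, with the motif), lay 448 and 422 kb from a gene.

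The members were spread over many intervals. There were 3109 intervals between genes with a member, of which 2623 held 1, 370 held 2 and 116 held 3 or more. The highest number was 5, reached in 6 intervals. That between Pdha2, the testis form of a pyruvate dehydrogenase subunit, and Gm15688 on chromosome 3 was the shortest of these at 246 kb, and its 5 members had strengths of 105, 19, 73, 32 and 63. The longest, 856 kb on chromosome 15 between Gm49280 and Mir3964, held members of 245, 30, 78, 40 and 90. Neighbours within such an interval therefore differed several fold in strength.

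The nearest other *Hells* CTRL peak of any kind was at a median of 89.5 kb and the nearest other member at 163 kb, and 191 members (5.11%) had another *Hells* CTRL peak within 10 kb. The closest pair of members had centers 1617 bp apart on chromosome 4, between Prdm13 (a PRDM family gene) and Ccnc (the cyclin C gene), with strengths of 40 and 32 and the motif in the second. The next pair, on chromosome 14, had centers 1926 bp apart and strengths of 121 and 106. The third, 2499 bp apart with strengths of 140 and 44, lay where the assembly of chromosome 11 begins, with no annotated gene before it and a tandem repeat at 1 of its peaks.

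The center of a member of chromosome 1 near Rab3gap2 is shown as an ordinary hotspot with a match of 9 letters, again with capitals over the match.
Member near Rab3gap2, chr1:185151714-185151789, minus strand: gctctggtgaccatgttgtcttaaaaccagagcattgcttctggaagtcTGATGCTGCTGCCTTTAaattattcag

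This member, at chr1:185150986-185152517, had a strength of 44 and lay 52.4 kb from Rab3gap2, a regulator of the Rab3 GTPases, and 52.2 kb from the noncoding gene Gm37662. Its motif score was 16.6, its nearest *Hells* cKO center was 41.2 kb away, and that peak had a strength of 95 on the scale of the *Hells* cKO list.

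Every autosome held members, in numbers from 90 on chromosome 19 to 290 on chromosome 1. Per Mb of intergenic sequence the density was lowest on chromosome 7 (2.64, 2.26 to 3.06) and highest on chromosome 15 (4.01, 3.48 to 4.59) and chromosome 18 (3.91, 3.36 to 4.52). The motif was found in 43.9% of members on chromosome 9 (35.9 to 52.1%) and in 57.8% on chromosome 19 (46.9 to 68.1%), and all other chromosomes lay between these. Median strength ran from 47.5 on chromosome 12 to 66.0 on chromosome 15.

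The distance to the nearest *Hells* cKO center, which the rule used, is given as a description. Its median was 71.1 kb, with quartiles of 22.2 and 196 kb, and 18 members (0.481%, 0.285 to 0.760%) had a center between the limit of the rule and 1 kb. In 53 cases the deposited intervals of the peaks still overlapped. The nearest *Hells* cKO peak lay at a transcript start for 1817 members (48.6%, 47.0 to 50.2%). The share of all *Hells* cKO peaks that lie at starts was not counted here, so nothing about the members is read from this. The strong intergenic *Hells* CTRL peaks, for which the rule set no condition on *Hells* cKO, had no partner in 107 of 325 cases (32.9%, 27.8 to 38.3%), beside 89.9% over all *Hells* CTRL peaks.

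The peaks nearest to each limit of the rule were as follows. At the strength limit, the members of 337 on chromosomes 16 and 17 were followed by excluded peaks 2 units stronger, 70.2 kb from the repair nuclease gene Ercc4, and of strength 340, 43.3 kb from Vps41. At the distance limit, the members with the nearest *Hells* cKO centers (430 and 462 bp) had strengths of 69 and 133, and the excluded peaks at 374 and 355 bp had strengths of 97 and 217. At the limit for transcript starts, members at 1008 and 1009 bp had strengths of 20 and 29, and excluded peaks at 1000 and 999 bp had 63 and 109. At the edge of genes, members 7 bp from Fam217b and 8 bp from Cib1 had strengths of 197 and 72, and peaks 25 bp inside C130074G19Rik and 26 bp inside D7Ertd443e had 22 and 28.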

How the data were processed

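DMC1 ChIP-SSDS peaks of *Hells* CTRL and *Hells* cKO testis were analysed from 1 deposited list per genotype (mm10), into which the authors had merged both libraries. The column used is the authors' strength score per peak, a whole number that they derived from fragment counts relative to local background and library size. They could not normalize between the genotypes, so strengths were not compared across lists. By the methods, reads were trimmed to 50 bp with a Phred limit of 28, and only uniquely mapped reads that were not duplicates were kept. The labels name Bowtie2, BWA and MACS2. Read depth was unknown. The 5hMeDIP libraries were not analysed here. The members and lists were chosen with earlier results of these data known.

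Peak centers, intergenic sequence and distances were taken from GRCm38 and GENCODE M21, all gene types included, with Python 3.11.15, numpy 2.4.6, pandas 2.3.3 and scipy 1.17.1. The motif was built over 30 rounds from the most enriched word of 8 bases, with a score limit met by 5% of the flanking windows of the strong peaks. Intergenic sequence was sampled every 100 bp. Intervals are Clopper-Pearson for shares, order-statistic for medians and Poisson for densities, at 95%. The steps were tested on simulated peaks with planted distances, genes, repeats and motifs. Named peaks were the 5 strongest, the strongest per autosome, the 3 farthest from genes, those with the 3 highest motif scores and the 3 highest CpG counts, the fullest intervals, the 3 closest pairs, those at each limit of the rule and those in 1 window of chromosome 1. Alternatives changed the limits of the rule, the annotation, the windows and the motif.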

Additional observations from a re-analysis of the deposited data

How the results depend on the processing

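No paired analysis was possible because the libraries were merged into 1 list per genotype, and for the same reason no library could be left out. The number of members became 1647 when only peaks at or above the list median of 63 were kept. Their median strength was then 122 and the motif share 55.9%, and with a strength limit of 195, the bound of the upper 20% of the list, the median was 47. The motif share was 33.5% within 50 bp and 59.1% within 250 bp, with the score limit reset for each length, 31.1% and 59.8% at limits met by 1% and 10% of flanking windows, 33.2% for the 20 words, and 47.8% and 55.6% for a motif from odd-numbered and even-numbered chromosomes scanned on the others. The matching flank shares of the members were 5.19%, 4.83%, 0.829%, 9.95% and 9.67% for the first 5. Mean CpG was 3.76 over 500 bp, scaled to the main window. The median gene distance was 18742 bp with a 2 kb reach to transcript starts, 12597 bp when only protein-coding genes counted and 65185.5 bp to the nearest protein-coding gene. The other alternatives moved a result by less than its counting interval (for the number of members, by under 1.5 times): 9 of 10 for the number of members, 9 of 11 for the median strength, 9 of 17 for the motif share, 11 of 12 for CpG and 8 of 11 for gene distance. With no read counts or separate libraries, biological spread cannot be given, and a partner in *Hells* cKO too weak to be listed cannot be told apart from none.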

Other observations

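Members were denser in the distal part of the chromosomes, a division chosen after the values were seen. In the last 20% of chromosome length there were 868 members, or 3.84 per Mb of intergenic sequence (3.58 to 4.10), against 2872 in the rest, or 2.95 per Mb (2.84 to 3.06). In the last 5 Mb there were 3.14 per Mb (2.62 to 3.72), against 3.12 (3.02 to 3.23) in chromosomes without their first 10 and last 5 Mb. The difference thus depends on where the division is placed. The interval of the last 5 Mb also overlaps that of the last 20%, so a rise at the very ends is neither shown nor excluded. The distal density was the higher on 15 of 19 autosomes, among them chromosome 15 (6.63 against 3.46 per Mb) and chromosome 16 (5.13 against 3.02), and the lower on chromosomes 4, 6, 12 and 13. Intergenic *Hells* cKO-only peaks were at 3.85 and 4.47 per Mb in the last 2 of 10 bins of chromosome length and at 1.76 in the first. Strong intergenic *Hells* CTRL peaks did not rise in this way. They were at 0.264 (0.180 to 0.375) and 0.193 (0.119 to 0.294) per Mb in the last 2 bins and at 0.249 (0.161 to 0.367) in the first.

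Intervals beside chemosensory receptor genes, large families read by sensory neurons, held few members. Where the nearest protein-coding gene was an olfactory receptor (Olfr) there were 30 members, or 1.47 per Mb (0.994 to 2.10), with a median strength of 79.5 and the motif in 12. Where it was a vomeronasal receptor (Vmn) there were 12, or 0.902 per Mb (0.466 to 1.58), with a median of 44 and the motif in 7. Both intervals lie under the 3.12 per Mb of all intergenic sequence. The effect on these densities of keeping only uniquely mapped reads was not tested. The other groups of peaks were not counted beside these genes.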
